A study of Mus musculus with 6 samples.

Results

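The subject is a set of 12 non-coding RNA rows, each from a different gene, that were higher in naive CD4 T cells without Trim28 than in wild-type cells. Naive CD4 T cells are the helper T cells that antigen has not yet activated. The table holds 19048 transcript rows, of which 2221 carry RefSeq accessions of non-coding RNAs (prefix NR_). The members were chosen by these same values: a row was taken when its lowest knockout value was above 1.5 times its highest wild-type value and its knockout mean was at least 20 normalized reads, that is, reads divided by the size factor of the library. Of 937 non-coding rows with a knockout mean of at least 20, 14 met these values (1.49%), and 2 of them, on chromosome 8, were left out by the rule. The same values were met by 1.44% of protein-coding rows, and the mirrored values, with wild type higher, by 0.544% of non-coding rows. Because the rule used the knockout and wild-type values, the levels and fold changes of the 12 rows are a description and carry no test.

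There were 3 wild-type libraries (WT1 to WT3) from littermates and 3 TRIM28 knockout libraries (KO1 to KO3), all from C57BL/6 mice. The cells were sorted by flow cytometry after magnetic enrichment, and all 6 libraries carry D0 in their titles. How Trim28 was deleted, in which cells, the age of the mice and whether each library is 1 mouse are facts not given in the sources used here. Spreads and p-values therefore measure differences between these libraries, and part of these differences may be technical.

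Trim28 is a corepressor that zinc finger proteins carry to DNA, where it brings in enzymes that methylate histone H3 and compact the chromatin. It is best known for silencing endogenous retroviruses, and genes near such elements can come under the same control. Long non-coding RNAs are long transcripts with no protein product, and a transcribed pseudogene is a disabled copy of a gene that is still copied into RNA. Many such transcripts are known by a clone number alone, and their roles are unknown.

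The labels were checked on Trim28 itself. It had 8429, 8287 and 9428 normalized reads in WT1 to WT3 and 738, 628 and 1247 in KO1 to KO3, which is 9.99% of the wild-type mean (log2 fold change -3.38, SE 0.22, limma adjusted p 0.000135, n = 3 per group). Depth ran from 22005759 to 44372701 reads per library. Of 7 markers of CD4 T cells in the table, 1 (Thy1) was lower in limma and none was higher, and their summed level was 117739 to 124848 in wild-type and 101995 to 116042 in knockout libraries. KO3 stood apart in markers of other cells. Its 9 B cell markers summed to 6587 normalized reads against 330.1 to 1110 in the other 5 libraries, and Cd8a and Cd8b1 to 4416 against 561 to 1065. Its 6 myeloid markers summed to 611 against 97.6 to 356, and its 3 natural killer cell markers to 1465 against 474 to 934, with Cd14 at 0 in it. WT1 and KO2 held 13625 and 12677 normalized Y-linked reads, and the other 4 libraries at most 2.39. Xist was present in every library, at 12289 and 16359 in WT1 and KO2. It was at 28062, 20568, 26815 and 19461 in WT2, WT3, KO1 and KO3. Whether a library held RNA of more than 1 mouse was not tested. In bulk RNA, fewer cells of a type and less RNA per cell cannot be told apart.

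The 12 rows were of mixed kinds. RefSeq classes 5 as long non-coding RNAs, 4 as transcribed pseudogenes, 1 as a microRNA hairpin, 1 as miscellaneous RNA (the pseudogene Slfn10-ps) and 1 as a non-coding transcript of the protein-coding gene Tmem241. Among the 937 non-coding rows with a knockout mean of at least 20, 52.6% were long non-coding RNAs and 9.61% transcribed pseudogenes. The 88 small nucleolar RNA rows among them (9.39%) gave none of the 12. Only 1.49% of the 937 met the values of the rule, so nothing is read from that absence. The rows lay on 8 chromosomes. The closest pair, Mir5123 and Gm12596 on chromosome 4, was 18410 kb apart, so no 2 of them adjoin.

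Sequence is shown for the microRNA row, since the row is the hairpin itself, and for the start sites of 3 long non-coding RNAs. These are 9430037G07Rik, with the largest rise, Gm6639, whose start is poor in CG, and E430016F16Rik, which ends beside Ntrk3. All come from RefSeq on GRCm38.p6, the assembly of mm10. The hairpin of Mir5123 lies on the minus strand of chromosome 4, at chr4:40850056-40850138, and its mature product is 24 bases long. In the mature sequence the capitals mark the seed, bases 2 to 8, and in the hairpin they mark the mature product where RefSeq places it, at chr4:40850057-40850080.
mmu-miR-5123: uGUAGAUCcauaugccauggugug
Mir5123 hairpin: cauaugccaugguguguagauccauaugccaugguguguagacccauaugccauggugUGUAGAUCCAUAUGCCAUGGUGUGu
The hairpin is a short tandem repeat. Set against itself at a shift of 22 bases, 59 of 61 bases were identical, and at a shift of 44 bases 39 of 39 were. The mature sequence occurs 2 times in it, from base 15 and, as annotated, from base 59. No other of 1679 mouse mature microRNAs in the RefSeq table has this seed.

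The start-site windows run from 250 bases before to 50 bases after the annotated start, 5′ to 3′ on the strand of the gene. Capitals mark CG dinucleotides and any match on either strand to TATAAA or CCAAT. The 2 motifs do not overlap each other here. The windows are chr9:88599194-88599493, chr3:35666114-35666413 and chr7:78718171-78718470, all on the minus strand.
9430037G07Rik: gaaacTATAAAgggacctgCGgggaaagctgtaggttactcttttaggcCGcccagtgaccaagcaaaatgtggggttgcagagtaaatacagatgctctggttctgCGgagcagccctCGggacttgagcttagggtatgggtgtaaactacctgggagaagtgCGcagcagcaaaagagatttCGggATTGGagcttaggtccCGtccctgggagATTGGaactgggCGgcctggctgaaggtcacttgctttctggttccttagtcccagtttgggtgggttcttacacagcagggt
Gm6639: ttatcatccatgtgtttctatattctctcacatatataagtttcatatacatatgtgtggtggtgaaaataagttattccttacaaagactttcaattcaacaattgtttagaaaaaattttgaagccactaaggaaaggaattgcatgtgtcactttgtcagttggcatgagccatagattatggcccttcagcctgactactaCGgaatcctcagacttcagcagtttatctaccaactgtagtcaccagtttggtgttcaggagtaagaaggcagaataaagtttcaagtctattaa
E430016F16Rik: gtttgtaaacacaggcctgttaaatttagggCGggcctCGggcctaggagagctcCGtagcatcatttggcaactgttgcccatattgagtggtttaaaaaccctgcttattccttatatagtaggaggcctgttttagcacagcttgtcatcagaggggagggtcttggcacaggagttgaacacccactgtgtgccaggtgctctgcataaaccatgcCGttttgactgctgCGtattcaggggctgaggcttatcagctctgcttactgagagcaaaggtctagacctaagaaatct
The window of 9430037G07Rik holds 8 CG dinucleotides, 1 TATAAA at position -245, counted from the start base as 0, and 2 CCAAT at positions -61 and -33. E430016F16Rik has 5 CG and neither motif. Gm6639 has 1 CG, and only 5.43% of 32851 promoter windows of this length had fewer. The window of 2900041M22Rik, the other row with an entry, has 8 CG and 1 CCAAT at 41 bases after the start. Over all windows the median is 7 CG, TATAAA is in 13.6% and CCAAT in 37.4%. The 4 windows thus have no one CG level or motif in common.

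**Figure D1:**
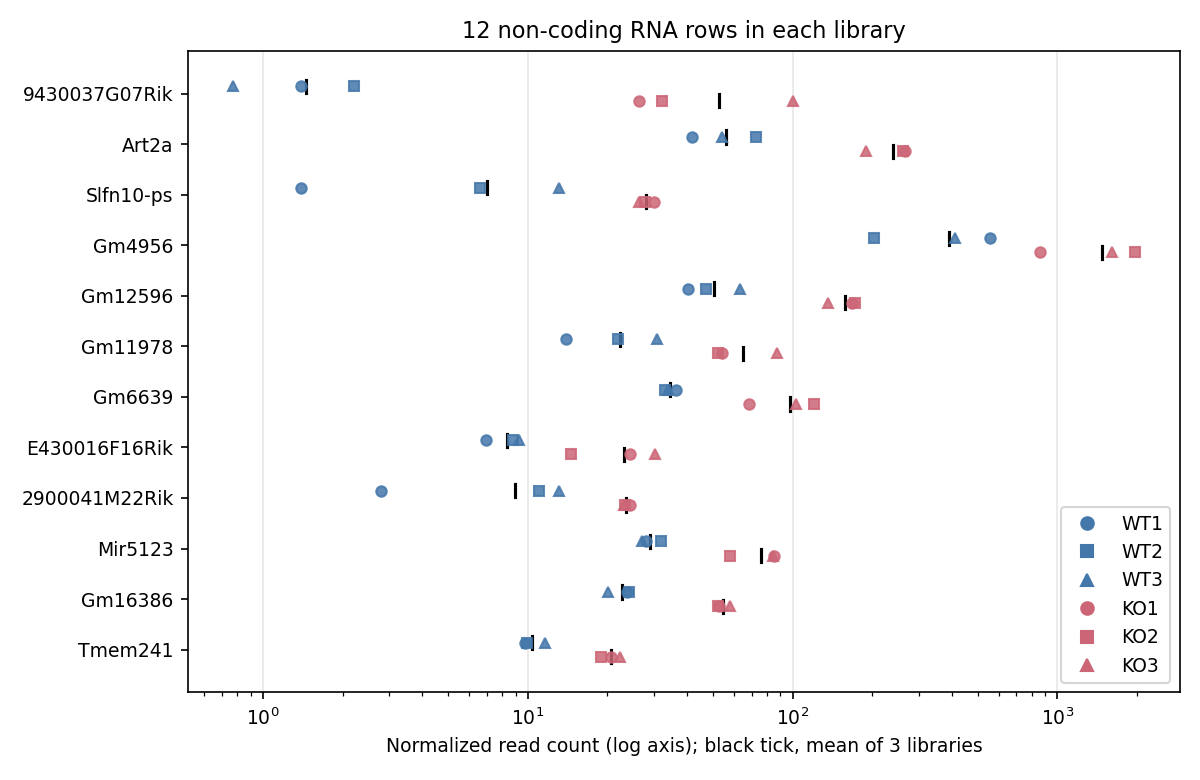
Normalized read count of the 12 rows (log axis) in each library, with a black tick at the mean of 3 libraries, ordered by the ratio of the group means. By the rule no knockout point overlaps the wild-type points, and 9430037G07Rik has the widest gap, from at most 2.20 in wild type to at least 26.4 in the knockout.

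The pseudogene rows included the most abundant of the 12. Gm4956, a transcribed pseudogene on chromosome 1 (21285246 to 21298312, minus strand), was at 558, 204 and 410 normalized reads in WT1 to WT3 and at 864, 1960 and 1603 in KO1 to KO3. Both groups were uneven, with 2.74 times between the wild-type extremes and 2.27 times between the knockout extremes. WT1 and KO1 were the closest pair, at a ratio of 1.55, so this row lies just inside the rule. Its group means were 390 ± 178 and 1476 ± 559 (SD, n = 3 per group), and its log2 fold change was 1.95 (SE 0.39).

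Art2a is a relative of Art2b, an enzyme on the T cell surface that attaches ADP-ribose to other proteins, and RefSeq lists it as a transcribed pseudogene. It lies on chromosome 7 (101552453 to 101560865). It was at 41.8, 72.6 and 54.1 normalized reads in WT1 to WT3 and at 267, 262 and 189 in KO1 to KO3, the second largest ratio of means of the 12, at 4.26 (log2 fold change 2.09, SE 0.24). The lowest knockout library was 2.60 times the highest wild-type one. Art2b, 14863 bases away, was at 1546, 2029 and 1583 in wild type and 1761, 1671 and 1174 in the knockout, where the groups overlap and limma called no change (log2 fold change -0.17, SE 0.17, adjusted p 0.721). The 2 transcripts are close copies in part: 2.42% of the 100-base windows of Art2a, the length of the reads, were also in Art2b.

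Gm11978, on the minus strand of chromosome 11 (6650148 to 6660236), overlaps the 5′ end of Ramp3, which is read from the other strand. Ramp3 encodes a partner protein that sets the ligand preference of the calcitonin receptor-like receptor. Gm11978 was at 13.9, 22.0 and 30.9 in WT1 to WT3 and 54.3, 52.5 and 87.7 in KO1 to KO3, with the highest value in KO3. Without KO3 its ratio of means was 2.39, against 2.91 with all libraries. Gm16386, on chromosome 17 (22776230 to 22817747), lies 28949 bases from the zinc finger gene Zfp945. It was among the evenest of the 12, at 23.7, 24.2 and 20.1 in wild type and 52.8, 52.5 and 58.2 in the knockout (log2 fold change 1.23, SE 0.26). Zfp945 did not follow it, with 99.0, 105 and 76.5 in wild type and 79.3, 64.1 and 94.8 in the knockout (limma adjusted p 0.713).

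Slfn10-ps is a disabled member of the Schlafen family, whose genes lie together on chromosome 11 (83028123 to 83040533 for this one). The row taken by the rule was at 1.39, 6.60 and 13.1 in WT1 to WT3 and 29.99, 27.7 and 26.3 in KO1 to KO3. These rest on few reads: 1, 6 and 17 in wild type and 42, 19 and 33 in the knockout. The read ratio was 3.42, with a 95% exact binomial interval of 2.17 to 5.61, which covers counting error only, as do the intervals below. The rule chose the rows by these same reads, so no interval is a test of a rise. The knockout libraries were nearly level, and the wild-type libraries differed by 9.42 times. A second transcript row of the gene did not meet the rule, at 18.1, 19.8 and 14.7 in wild type and 33.6, 27.7 and 23.9 in the knockout (log2 fold change 0.66, SE 0.33, limma adjusted p 0.468). Of its 100-base windows, 7.84% were also in Slfn8 or Slfn9, which are far more abundant. Slfn8 was at 1844 to 2552 in wild type and 2246 to 2621 in the knockout, and Slfn9 at 549 to 1885 and 358 to 801, so neither was higher in all knockout libraries. The handling of reads shared by such copies is unknown here, and so is that of any reads shared by both transcript rows of Slfn10-ps.

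Among the long non-coding RNAs, 9430037G07Rik was nearly silent in wild-type cells. It lies on chromosome 9 (88595325 to 88599243, minus strand) in 5 exons and was at 1.39, 2.20 and 0.772 in WT1 to WT3 and 26.4, 32.1 and 100 in KO1 to KO3. Wild-type libraries held 4 reads of it in all and knockout libraries 185. The read ratio was 40.4 (95% exact binomial interval 15.5 to 150). KO3 was 3.80 times KO1, and without KO3 the ratio of means was 20.1 in place of 36.4. KO3 is also the library with the most reads of B cell, CD8 and other markers. In KO1 and KO2 the B cell markers summed to 448 and 382, against 1110, 330.1 and 1108 in WT1 to WT3, and the CD8 markers to 755 and 708, against 873, 561 and 1065. The part of other cells in the level of 9430037G07Rik was not tested. Part of this transcript is not unique: 18.8% of its 100-base windows occur in other genes, most of them in 9330159M07Rik, which had 1.39, 0 and 0 in wild type and 2.86, 2.91 and 11.2 in the knockout. That row was too low for the test. On the opposite strand the processed pseudogene Gm29603 shares 334 exonic bases with 9430037G07Rik (10.5% of its length), and their reads cannot be told apart without strand.

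Gm12596 (chromosome 4, 59260051 to 59269144, 3 exons) was at 40.4, 47.3 and 63.3 in wild type and 167, 172 and 136 in the knockout. Its lowest knockout library was 2.15 times the highest wild-type library, and no stretch of 100 bases was shared with another gene. Gm6639 (chromosome 3, 35597152 to 35666163, 19 exons) was level in wild type, at 36.3, 33.01 and 33.99, and spread in the knockout, at 68.5, 121 and 103. Each value of Gm6639 in the knockout was at least 1.89 times the highest wild-type value. The fold changes of the pair were 1.65 (SE 0.22) and 1.44 (SE 0.26) on the log2 scale.

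E430016F16Rik and 2900041M22Rik were scarcer. E430016F16Rik (chromosome 7, 78581066 to 78718220, 11 exons) was at 6.97, 8.80 and 9.27 in wild type and 24.3, 14.6 and 30.3 in the knockout, from 25 and 82 reads, and KO2 was only 1.57 times WT3. Its read ratio was 2.87 (95% exact binomial interval 1.81 to 4.68). 2900041M22Rik (chromosome 11, 117611247 to 117613417, 2 exons) was at 2.79, 11.0 and 13.1 in wild type and 24.3, 23.3 and 23.1 in the knockout, from 29 and 79 reads. The knockout libraries were within 1.05 times of each other, and most of its spread came from WT1, with 2 reads. Its read ratio was 2.38 (1.54 to 3.78).

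Mir5123 was at 27.9, 31.9 and 27.0 in WT1 to WT3 and 84.96, 58.3 and 84.5 in KO1 to KO3. The row counts reads over the 83 bases of the hairpin printed above, which is shorter than a read, in libraries of total RNA, so it does not measure the mature microRNA. The hairpin lies in intron 1 of B4galt1, on the same strand, 3252 bases from the nearest exon. The non-coding Tmem241 transcript (chromosome 18, 11980119 to 12121570) had the smallest change, at 9.76, 9.90 and 11.6 in wild type and 20.7, 18.9 and 22.3 in the knockout, a ratio of means of 1.98. Its read ratio was 1.97, from 31 wild-type and 70 knockout reads (exact binomial interval 1.28 to 3.12). The protein-coding Tmem241 row was at 6.97, 9.90 and 2.32 and at 11.4, 4.37 and 8.77, where the groups overlap, and it was too low for the test. Both rows are transcripts of the same gene. Whether they share reads was not tested, so their difference cannot be assigned to either transcript.

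**Figure D2:**
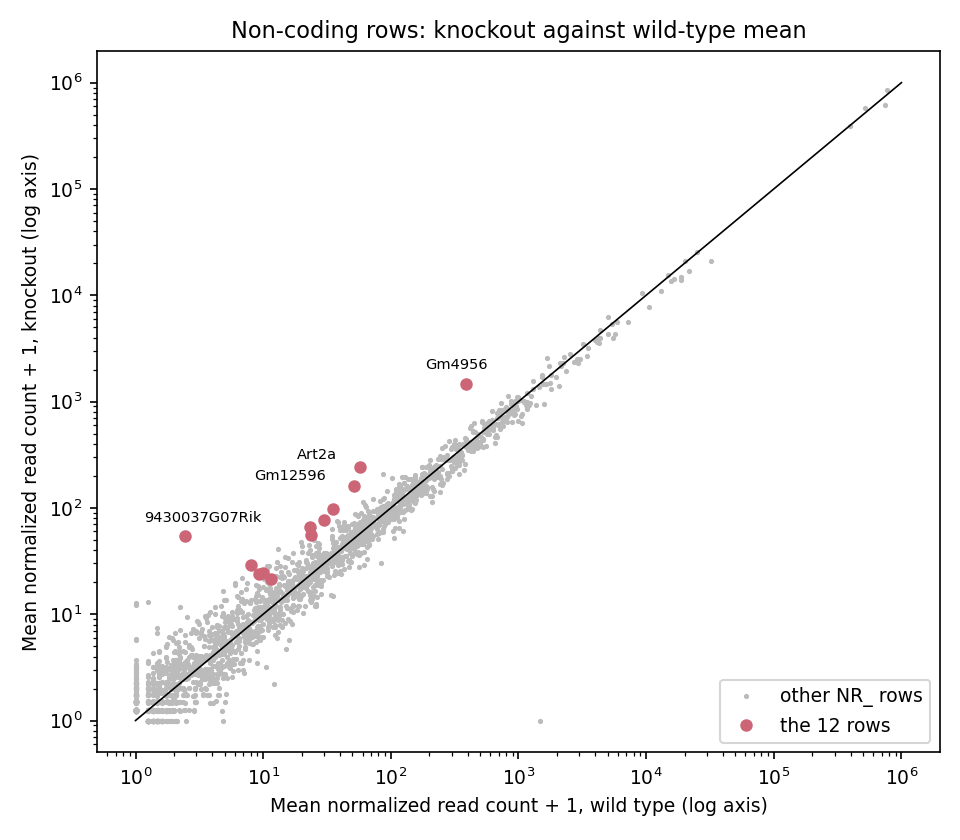
Mean normalized read count plus 1 of non-coding rows, knockout (vertical) against wild type (horizontal), both on log axes, with the line of equal means and with the 2 rows left out by the rule not drawn. The 12 rows (red) lie above the line, 11 of them with wild-type means under 100.

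All 12 rows passed the filter of the fit across all rows, a mean of at least 10 normalized reads over the 6 libraries, which a knockout mean of 20 already ensures. Of the 12, limma called 5 at an adjusted p under 0.05. Over all tested non-coding rows it called 0.627% higher and 0.448% lower, and over all tested rows 1.19% higher and 0.315% lower. Since the rule used the same contrast, nothing is read from that count. The 5 were 9430037G07Rik, Art2a, Gm12596, Gm6639 and Mir5123. The median log2 fold change of the 12 was 1.52, and that of all tested rows 0.0019. Per kilobase of transcript, and leaving out the hairpin, knockout means ran from 7.46 normalized reads for E430016F16Rik to 1285 for Gm4956.

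The 12 rows did not share 1 order of the knockout libraries. Without KO3, the library with the most reads of other cell types, their ratios of means ran from 1.90 for Tmem241 to 20.1 for 9430037G07Rik. The highest knockout value was in KO1 for 4 rows, in KO2 for 3 and in KO3 for 5. In 7 rows the knockout libraries were within 1.5 times of each other, and in 9430037G07Rik, Gm4956, E430016F16Rik, Gm6639 and Gm11978 they were not. Among the wild-type libraries WT1 was lowest in 7 rows. Just inside the rule, besides Gm4956 and E430016F16Rik, was Tmem241 at a ratio of 1.64 between the lowest knockout and the highest wild-type library. Just outside it were A730085K08Rik, AI506816 and Mir7682, at 1.496, 1.45 and 1.45. A730085K08Rik was at 8.37, 11.0 and 15.4 in wild type and 23.6, 32.1 and 23.1 in the knockout.

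**Figure D3:**
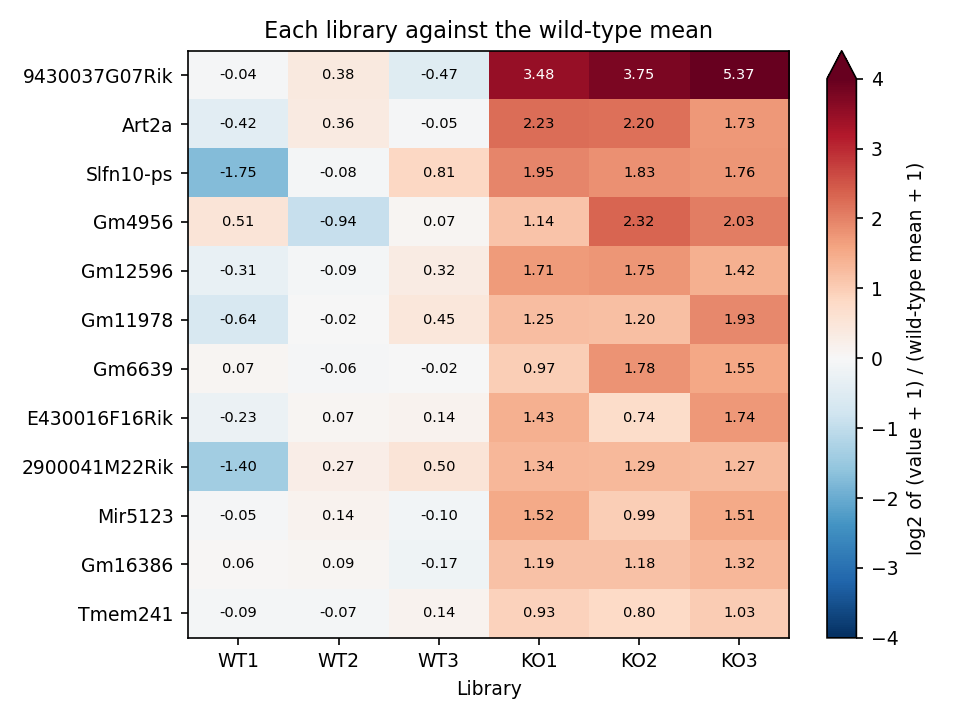
Log2 of each library's value plus 1 over the wild-type mean plus 1, for the 12 rows (vertical) in the 6 libraries (horizontal), ordered by the ratio of the group means. Knockout cells run from 0.74 for E430016F16Rik in KO2 to 5.37 for 9430037G07Rik in KO3, and the lowest wild-type cell is Slfn10-ps in WT1 at -1.75.

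The rule did not use the rows of the genes around the 12. Where such a gene overlaps a member, however, the 2 rows may share reads, so its test is not independent of the choice of members. In the RefSeq gene table, 37 protein-coding genes of the deposited table overlapped 1 of the 12 or lay within 100 kb of it, and 27 were abundant enough to test. In limma 2 of the 27 were higher and 1 was lower, against 1.24% higher and 0.302% lower of all tested protein-coding rows. The groups lay apart in 8 of the 27, against 18.7% of all tested protein-coding rows. Both higher genes, Ramp3 and B4galt1, were those whose body overlaps a member of the set, and no tested gene that only lay nearby was called higher.

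Ramp3 was at 326, 306 and 341 normalized reads in WT1 to WT3 and 1028, 1268 and 1023 in KO1 to KO3. The groups were far apart (log2 fold change 1.76, SE 0.12, limma adjusted p 0.000172, n = 3 per group). It is read from the strand opposite to Gm11978, and the exons of the 2 share 94 bases, 7.21% of the Gm11978 transcript. Whether the strand was kept in library preparation is unknown, and reads from those bases could belong to either gene. The 2 did not rank the knockout libraries alike: Ramp3 was highest in KO2, and Gm11978 in KO3.

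B4galt1, an enzyme of the Golgi that adds galactose to sugar chains, was at 6396, 6926 and 6384 in wild type and 11336, 10907 and 9348 in the knockout. Its log2 fold change was 0.68 (SE 0.10, limma adjusted p 0.00993, n = 3 per group), while that of the Mir5123 hairpin in its first intron was 1.34 (SE 0.26). The call of B4galt1 was lost without WT1, WT3 or KO2 and without the mean-variance trend, at adjusted p from 0.0643 to 0.0822, with the fold change at 0.65 to 0.68. Intronic RNA of B4galt1 and transcripts of the hairpin cannot be told apart in this row.

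**Figure D4:**
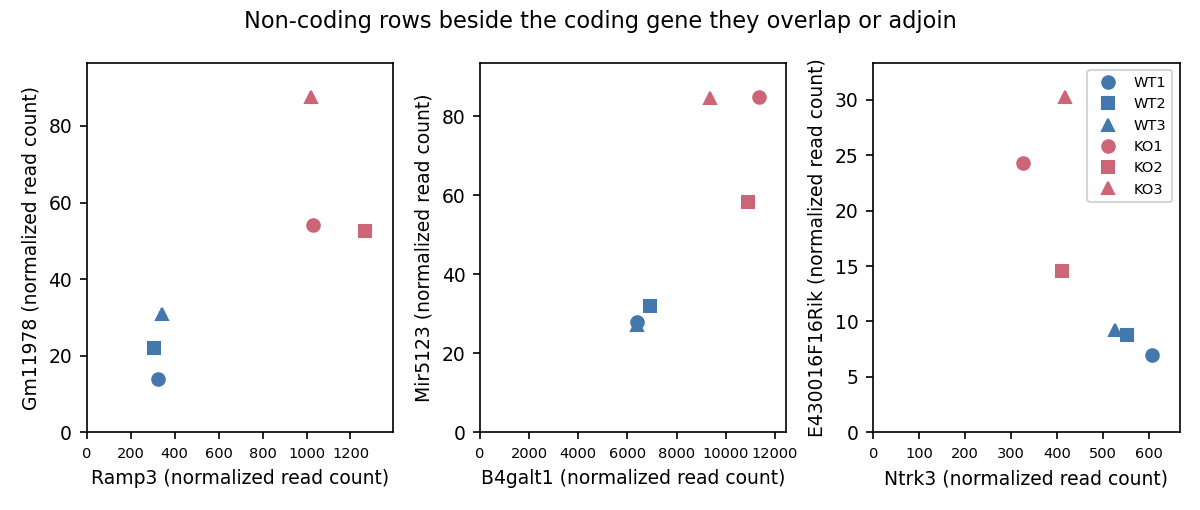
Normalized read count of 3 non-coding rows (vertical) against the coding gene each overlaps or adjoins (horizontal) in the 6 libraries, on linear axes from 0. Knockout points (red) lie above and to the right of wild type for Gm11978 with Ramp3 and for Mir5123 with B4galt1, and above and to the left for E430016F16Rik with Ntrk3.

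On the lower side, Slfn2, which keeps T cells quiescent and lies 24578 bases from Slfn10-ps, was called. It went from 24017, 24457 and 22077 to 13331, 13869 and 13443 (log2 fold change -0.79, SE 0.08, limma adjusted p 0.00155). Slfn5, Slfn8 and Slfn1, of the same family and region, had log2 fold changes of -0.01, 0.09 and -0.07 and were not called. Slfn9 had a log2 fold change of -0.90 with a wide error (SE 0.45) and was not called either (limma adjusted p 0.465). Ntrk3, the receptor for neurotrophin 3, begins 31 bases beyond the end of E430016F16Rik on the same strand. It was at 607, 554 and 526 in wild type and 327, 411 and 417 in the knockout. The groups did not overlap, but it missed the threshold (log2 fold change -0.55, SE 0.13, limma adjusted p 0.112), and without KO3 it was called (adjusted p 0.0440). That is 1 of 18 other settings, over which the limma adjusted p of Ntrk3 reached 0.452.

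Pde2a, a phosphodiesterase that breaks down cyclic nucleotides, lies 39623 bases from Art2a and was lower in each knockout library, at 56.4, 36.4 and 59.8 against 100.4, 145 and 118. It did not pass (log2 fold change -1.25, SE 0.26, limma adjusted p 0.0587) but was called without KO3 (adjusted p 0.0234), after quantile normalization (0.0283) and with Y-linked reads as a covariate (0.0403). Those are 3 of 18 other settings, over which its limma adjusted p reached 0.216. Atp11b, a lipid transporter 87880 bases from Gm6639, was at 14046, 16687 and 12424 in wild type and 23987, 25438 and 15429 in the knockout. The lowest knockout library, KO3, was below WT2, and the change was not called (log2 fold change 0.56, SE 0.19, limma adjusted p 0.263). Without KO3 it was (0.79, adjusted p 0.00723), which is 1 of 18 other settings, over which its limma adjusted p reached 0.656. Also without KO3, 6 of the 27 genes were called, 3 in each direction, while calls over all rows rose from 196 to 553 (354 higher and 199 lower of 12856 tested). The nearest higher gene of 9430037G07Rik, Sh3bgrl2, lay 4995 kb away, and that of Gm16386, Zfp820, 930.5 kb away.

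**Figure D5:**
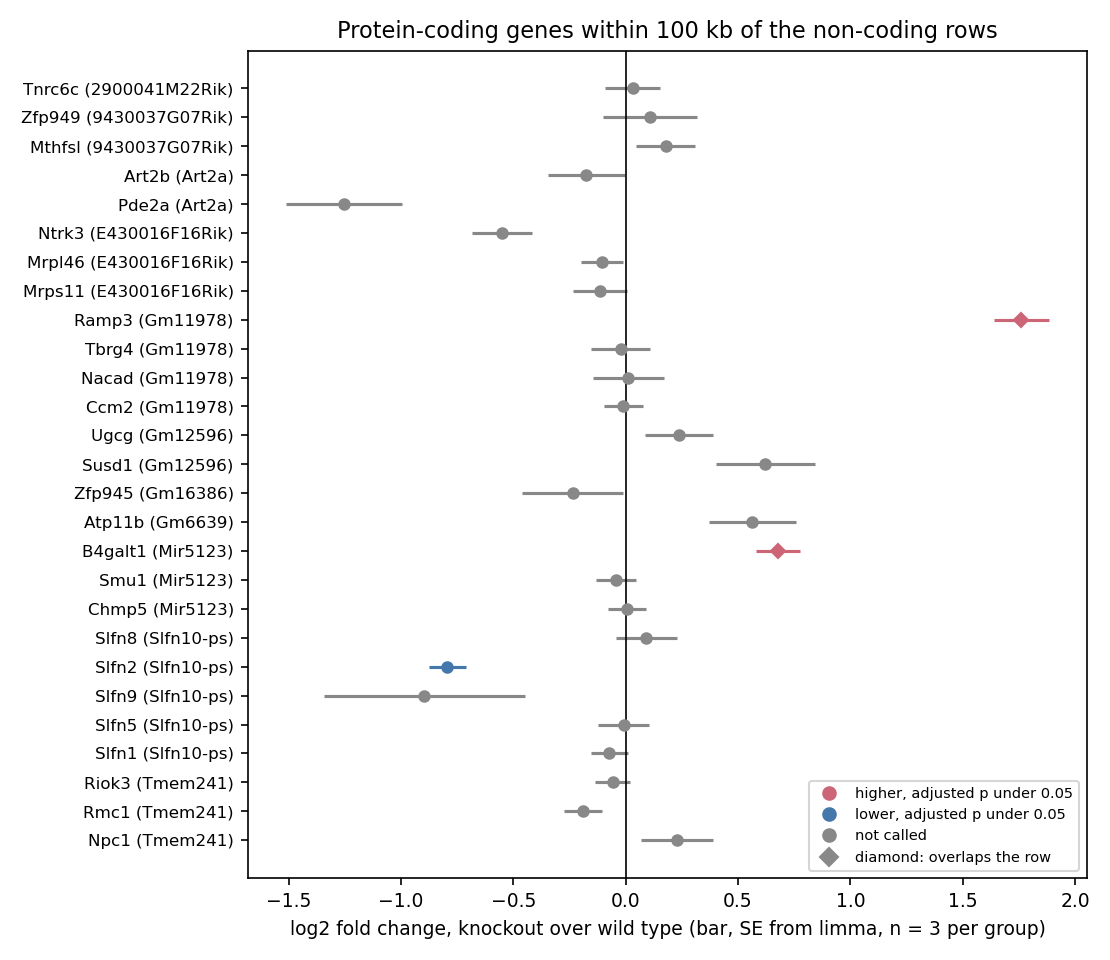
Log2 fold change with its SE (limma, n = 3 per group) of the 27 tested protein-coding genes that overlap or lie within 100 kb of the non-coding row named in brackets. Ramp3 and B4galt1 (red diamonds, overlapping) are higher and Slfn2 (blue) is lower, and the rest (grey) were not called.

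Genes that act with Trim28 in silencing, and other well-known non-coding RNAs, were set beside the 12. These lists, the first of which holds Trim28 itself, were chosen with earlier results of these data known. Their counts are therefore a description and carry no test. Of 30 tested genes of the silencing list, 3 were higher and 1, Trim28, was lower in limma, with a median log2 fold change of 0.06, where 1.19% of all tested rows were higher and 0.315% lower. With voom weights 2 were higher and 1 was lower. The 3 higher in limma were Resf1 (105, 110 and 88.1 against 499, 643 and 395), Morc3 and Trim24. Of 30 tested RNAs of the nuclear and snoRNA host list, such as Malat1 and Neat1, limma called 0, as did its voom weights. An unadjusted p under 0.05 was found in 5 of the 30, and the median log2 fold change of the 30 was -0.16. The share of all tested rows under that p is not given here, so nothing is read from the 5. Kcnq1ot1 is also in the imprinted list below. Rmrp, Rpph1 and Terc of the nuclear and snoRNA host list are not classed as long non-coding RNAs by RefSeq. Pvt1 had the smallest p in that list, at 1210, 1106 and 1155 in wild type and 807, 870 and 874 in the knockout (limma adjusted p 0.0658). Of 4 tested genes of the imprinted list (Kcnq1ot1, Airn, Peg13 and the protein-coding row Mcts2) and 3 tested microRNA host genes, limma and voom called 0, and an unadjusted p under 0.05 was found in 0. None of the 12 rows is in these lists.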

How the data were processed

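RNA of 3 wild-type and 3 TRIM28 knockout libraries of naive CD4 T cells was sequenced as 100-base paired-end reads, per the labels' protocols. STAR, HTSeq, DESeq2 and the mm10 build are named in the submitters' processing notes, with no versions or roles. The authors deposited 1 table of log10 values. After 10 to the value, minus 1, 100% of the values in each library were whole multiples of 1 step, within 0.01 of a whole number, so each value is read as log10(1 + reads / size factor). Recovered reads served for totals and intervals. RefSeq tables (GRCm38.p6) named 18811 of 19048 rows and all 12 rows described, and GENCODE release 21 for mouse gave exons and transcripts, matched by accession for 11 rows and by symbol for Gm16386.

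The fit was limma 3.58.1 (R 4.3.3) with the empirical Bayes trend on log2 of the normalized count plus a pseudocount of 1, over 13022 rows with a mean of at least 10, with two-sided p-values adjusted by Benjamini-Hochberg and a threshold of 0.05. This scale understates the change of low rows. With 3 against 3 libraries an exact permutation test cannot go below 0.1. Members, lists and the rule for named genes (all 12 rows, coding genes that overlap them, called neighbours, up to 4 genes of each list by p, rows at the edge of the rule) were chosen with earlier results of these data known. Ntrk3, Pde2a, Atp11b, Zfp945, Art2b, Slfn1, Slfn5, Slfn8, Slfn9, Zfp820, Sh3bgrl2, 9330159M07Rik and the rows of the closing section were named after their values were seen. The fit was also run on simulated counts that had the same setting of spread for every row, unlike the real rows. Nothing is read from that run. Other settings were the pseudocount, filter, scaling, variance model, a replicate block, Y-linked reads as a covariate, each library left out, rows summed per gene, gap and thresholds.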

Additional observations from a re-analysis of the deposited data

How the results depend on the processing

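The direction of each of the 12 rows and of Trim28 held under every setting in which it was fitted, which the rule fixes for the 12, and 9430037G07Rik ranged from 2.95 to 4.63 on the log2 scale, lowest with a pseudocount of 5 and highest with voom. The number of rows that met the rule was 34 at a ratio of 1.2, 5 at 2 and 1 at 3, and 3 with a knockout mean of at least 100. Leaving out 1 library gave 14 to 26 rows, with 19 without WT2 and 26 without KO3. The ratio of lowest knockout to highest wild-type value cannot fall when a library is left out, so nothing is read from these higher counts. Without KO3, Tmem241 and E430016F16Rik fell under a mean of 20, and under quantile normalization 2900041M22Rik and Tmem241 left the set. Calls over all rows numbered 196, and 124 without the mean-variance trend, 111 at an adjusted p under 0.01, and 113 to 553 with 1 library left out (553 without KO3, 127 without WT3, 124 without WT1, 113 without KO2). Called neighbours numbered 3, and 2 to 6 with 1 library left out (6 without KO3). The causes were not tested. With the replicate number as a block 175 rows and 4 neighbours were called, but the numbers are not shown to pair the libraries: deviations of same-numbered libraries correlated at -0.31, 0.26 and 0.36. Trim28 was also fitted under the settings of the other results, chosen after seeing the data, with log2 fold changes from -3.67 to -3.18. Rows with at most 31 wild-type reads (9430037G07Rik, Slfn10-ps, E430016F16Rik, 2900041M22Rik and Tmem241) are limited by counting.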

Other observations

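With the rule mirrored (lowest wild-type library above 1.5 times the highest knockout library, wild-type mean of at least 20), 5 of 919 non-coding rows were taken (0.544%), of which 4 are long non-coding RNAs. In limma 7 tested non-coding rows were higher (0.627%) and 5 lower (0.448%). Of the mirrored rows, only I730030J21Rik was among these 5 (limma adjusted p 0.0232). The fit did not call Gm6213 (limma adjusted p 0.0533), 4930526I15Rik (0.135), Fcsk (0.265) or 4933408J17Rik (0.352). Gm6213 had the largest drop, from 80.9, 71.5 and 95.01 in WT1 to WT3 to 21.4, 24.8 and 41.4 in KO1 to KO3. I730030J21Rik went from 197, 211 and 219 to 104, 111 and 122. 4930526I15Rik went from 60.4 to 28.2 and 4933408J17Rik from 25.5 to 13.7 in the group means, and a non-coding transcript of Fcsk from 24.6 to 10.9.

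1 row of the whole table had at least 100 normalized reads in 1 library and no read in the other 5. It was BC018473, a long non-coding RNA on chromosome 11 (116752167 to 116757883), with 4017 reads in WT2, a normalized read count of 4420.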
